A study of Mus musculus with 48 samples.

Results

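AB1 responders were ordered by their level of Cd8a, the gene for the alpha chain of CD8, and the 6 tumours with the most Cd8a were set against the 6 with the least. The 12 tumours were all the AB1 responders among 48 libraries in the series. The Cd8a level, its count scaled to the library total (CPM, the unit of all levels below), alone chose the sides. Cd8a lay at 46.8 to 64.4 CPM (median 58.0) on the high side and at 14.1 to 30.9 CPM (median 21.6) on the low side. Responder 8, at 46.8 CPM, was the nearest tumour inside the threshold, and responder 11, at 30.9 CPM, the nearest outside it. The high side held responders 4, 5, 7, 8, 9 and 10, and the low side held responders 1, 2, 3, 6, 11 and 12. These Cd8a values are the basis of the choice and not a finding. A test on another gene here asks whether it moved with Cd8a among responders, and compares no treatment.

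AB1 is a mesothelioma cell line, and it was grown under the skin of female BALB/c mice aged 8 to 9 weeks. The whole tumour was removed on day 8, at the day 0 pretreatment time point. Every mouse is labelled as given anti-CTLA4 plus anti-PDL-1, and the class responder or non-responder is its outcome. Both sides share the line, the host, the day, the treatment and the outcome. Each library was 1 tumour, and p-values measure the spread between these tumours. The comparison groups were 12 AB1 non-responders of the same design, with Cd8a at 2.07 to 9.59 CPM, and 24 tumours of Renca, a kidney cancer line, removed on day 10 (12 responders, at 23.7 to 82.3 CPM, and 12 non-responders, at 8.66 to 37.4 CPM). The model has 1 tumour line per cancer, grown away from the organ of origin. The mesothelial genes Upk3b and Krt19 were at 0 to 0.262 CPM in all 12 responders, and Wt1 at 0.677 to 2.74 CPM.

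CD8 is the co-receptor of cytotoxic T cells, made of an alpha and a beta chain, and it binds MHC class I on the target cell. Chronic stimulation in tumours makes such cells express PD-1, the receptor whose ligand PD-L1 was blocked in these mice, while regulatory T cells, marked by the transcription factor Foxp3, restrain them and carry CTLA4. Interferon gamma from T cells and NK cells induces Irf1, chemokines such as Cxcl9, guanylate-binding proteins and antigen presentation. Macrophages take up dying cells and degrade them in lysosomes. In whole tumours, fewer cells of a type and less RNA per cell cannot be told apart.

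Library totals ran from 22.9 to 24.1 M counts on the high side and from 23.6 to 24.2 M on the low side (exact two-sided permutation test p = 0.026, adjusted p = 0.13 over 5 library measures). The second of the RNA purity ratios in the labels had medians of 2.21 on the high side and 2.13 on the low side (exact permutation p = 0.108, adjusted p = 0.135). Responders 12 and 3, both on the low side, stood apart. Responder 12 had Cxcl9 at 559 CPM, against 1471 to 1769 CPM in the other low responders, and the highest summed fibroblast and matrix level, 44530 CPM. Both values lay inside the ranges of the AB1 non-responders, 93 to 1230 CPM and 33850 to 61490 CPM. Responder 3 had Krt5, a skin keratin, at 21.3 CPM, where no high responder exceeded 0.342 CPM. Counts are therefore given also without these libraries where they bear on a result. The B cell gene Ms4a1 was at 0.124 to 0.918 CPM in all 12.

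Of 15425 genes tested, 397 were higher on the high side (2.57%) and 131 lower (0.849%) at an adjusted p under 0.05, or 3.42% in either direction. Ranges of CPM that did not overlap were found for 1.76% of genes in the higher and 1.47% in the lower direction. At an unadjusted p under 0.05 there were 4061 of the 15425 genes in edgeR. There were 3617 without responder 12, 3291 without responder 6 and 2818 with the RNA purity ratios added. In DESeq2, 1124 genes passed as higher and 752 as lower among 13823 with an adjusted p. Counts of list members at those thresholds are to be read beside these. The genes that rose included members of the T cell, MHC class II, complement and lysosomal groups, while no gene of the interferon gamma or proliferation lists passed. With log2 Cd8a fitted as a slope over the same 12 responders, 1698 genes were higher (11%) and 1634 lower (10.6%), 21.6% in all. That slope was fitted only with all 12, and not without responders 12 and 6, which had the lowest Cd8a (14.1 and 14.7 CPM). Without responders 3 and 12 the counts were 308 higher and 132 lower. The counts depended strongly on single libraries: without responder 6 there were 10 higher and 0 lower, and without responder 8 there were 967 higher and 570 lower. With both RNA purity ratios added to the fit, Pdcd1 alone passed, and within either sequencing flow cell none did (1834 and 3145 genes at an unadjusted p under 0.05).

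Promoters of 5 genes are shown because they stand for the groups that did and did not move with Cd8a: Pdcd1 and H2-Eb1 (PD-1 and an MHC class II chain), the interferon-induced genes Gbp2 and Irf1, and the lysosomal protease gene Ctsd. Each run is the 250 bases before the start site from RefSeq on GRCm38.p6, read 5′ to 3′ on the gene's strand. Capitals mark the core of the interferon-stimulated response element, the gamma-activated site TTCNNNGAA or the E-box CACGTG, on either strand.
Pdcd1, chr1:94052554-94052803, minus strand: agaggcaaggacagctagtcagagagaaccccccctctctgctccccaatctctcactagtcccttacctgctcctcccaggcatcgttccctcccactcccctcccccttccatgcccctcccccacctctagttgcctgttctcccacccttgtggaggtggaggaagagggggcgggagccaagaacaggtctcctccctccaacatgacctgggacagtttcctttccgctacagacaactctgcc
H2-Eb1, chr17:34305617-34305866, plus strand: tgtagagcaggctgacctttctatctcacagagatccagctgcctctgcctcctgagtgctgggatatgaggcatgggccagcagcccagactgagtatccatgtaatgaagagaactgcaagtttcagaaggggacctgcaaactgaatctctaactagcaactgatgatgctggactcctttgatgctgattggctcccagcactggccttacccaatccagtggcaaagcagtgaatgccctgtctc
Gbp2, chr3:142620413-142620662, plus strand: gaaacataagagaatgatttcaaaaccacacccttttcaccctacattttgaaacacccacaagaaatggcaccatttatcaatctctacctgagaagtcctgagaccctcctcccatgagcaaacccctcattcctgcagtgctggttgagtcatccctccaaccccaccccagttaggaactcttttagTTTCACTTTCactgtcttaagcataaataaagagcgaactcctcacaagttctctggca
Irf1, chr11:53769764-53770013, plus strand: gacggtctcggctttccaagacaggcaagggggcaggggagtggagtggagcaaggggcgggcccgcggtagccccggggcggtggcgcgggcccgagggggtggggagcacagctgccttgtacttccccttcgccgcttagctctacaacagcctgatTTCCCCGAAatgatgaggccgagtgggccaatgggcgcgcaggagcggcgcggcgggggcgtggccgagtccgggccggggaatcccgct
Ctsd, chr7:142387828-142388077, minus strand: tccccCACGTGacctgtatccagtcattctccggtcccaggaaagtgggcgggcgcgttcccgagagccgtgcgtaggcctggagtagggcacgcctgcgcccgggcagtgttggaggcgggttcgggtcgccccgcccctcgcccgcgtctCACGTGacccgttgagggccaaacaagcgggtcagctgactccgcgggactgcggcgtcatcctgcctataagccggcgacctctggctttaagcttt
Gbp2 had the response-element letters beginning 59 bases before its start and Irf1 the gamma-activated letters 90 bases before. Ctsd held 2 E-boxes, beginning 245 and 98 bases before its start, and the windows of Pdcd1 and H2-Eb1 held none of the 3 motifs. Counted over windows from 250 bases before to 50 after the start, the response-element core was in 3.99% of all 27025 promoters and in 3.18% of the 283 promoters found for the 397 genes that rose. It was in 66.7% of the 15 promoters found for the interferon gamma list. TTCNNNGAA was in 9.55% of all promoters, 11% of those of the genes that rose and 53.3% of those of the interferon gamma list. CACGTG, a motif added after values were seen, was in 8.09% of all promoters and in 11% of those of the genes tested. It was in 11% of those of the genes that rose and 13.4% of those of the genes that fell. Of 37 lysosomal promoters 35.1% held it. For lysosomal genes that rose it was in 1 of the 11 found, that of Ctsd. A match describes letters and is not a bound site.

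The CD8 beta chain and PD-1 separated the sides completely. Cd8b1 (chr6:71322788-71337494) codes for the partner chain of Cd8a in the same co-receptor. The choice did not use its counts, but with its partner gene choosing the sides a rise was likely in advance. Cd8b1 lay at 19.1 to 31.1 CPM (median 25.7) in high responders and at 8.16 to 14.6 CPM (median 9.73) in low responders. The sides did not overlap, and the log2 fold change was 1.29 (SE 0.16, edgeR adjusted p = 0.0119). Non-responders lay lower still, at 1.09 to 5.55 CPM. Pdcd1 (chr1:94038305-94052553), the gene for PD-1, lay at 30.4 to 37.9 CPM (median 31.9) in high responders and at 13.8 to 17.0 CPM (median 15.7) in low ones. Every high responder had more Pdcd1 than every low responder, and every low responder had more than every non-responder (2.56 to 9.67 CPM). Its log2 fold change of 1.11 (SE 0.08, 95% interval 0.94 to 1.28) had the smallest p of all genes tested (edgeR adjusted p = 7.23e-05). Pdcd1, Cd8b1, Cd3g and Cxcr6 passed in each of the 12 fits that left out 1 library. Of these, Pdcd1 passed with the purity ratios added (log2 fold change 1.04, edgeR adjusted p = 0.0022), while Cd8b1 had 1.24 with adjusted p = 0.0885.

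**Figure D1:**
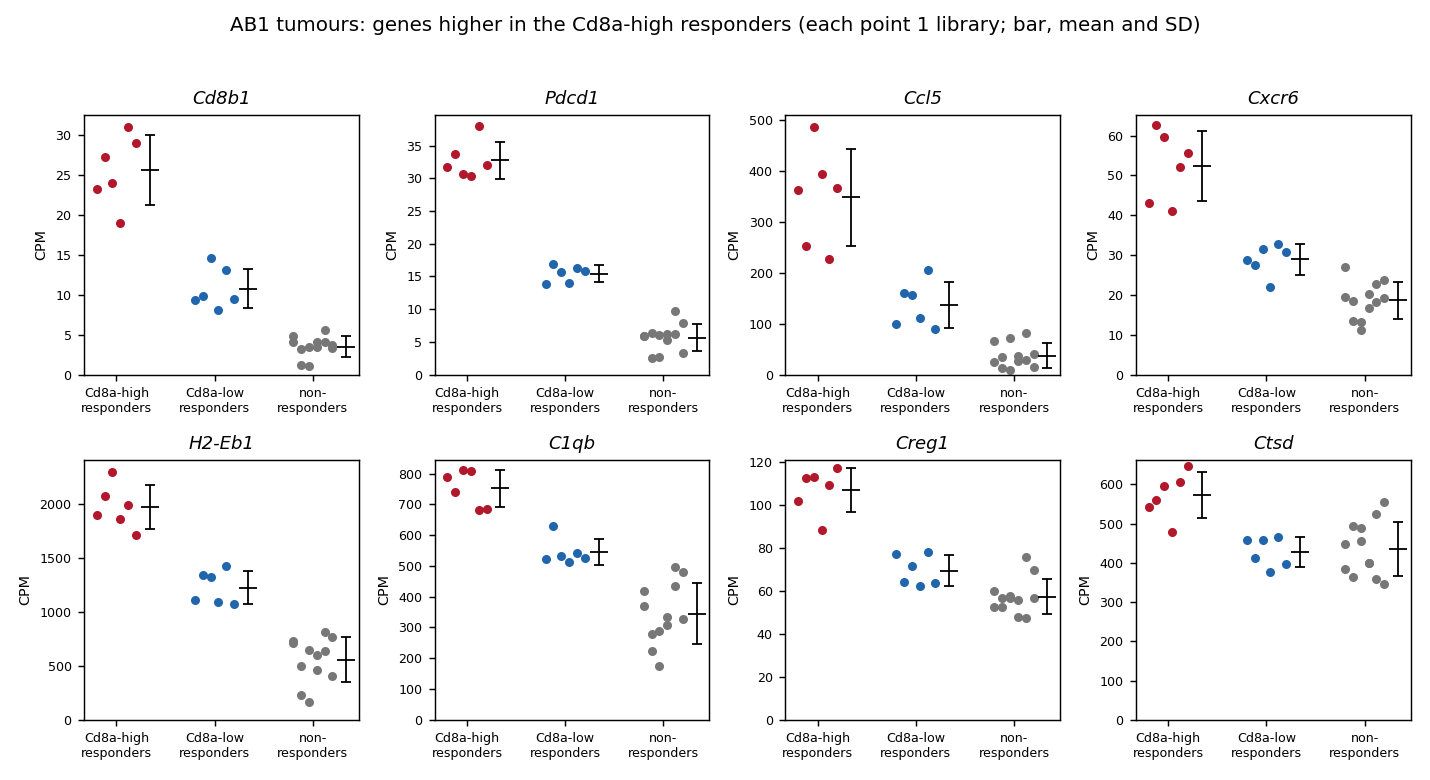
CPM on a linear axis from 0 in 6 Cd8a-high responders, 6 Cd8a-low responders and 12 AB1 non-responders, for 8 genes that were higher on the high side. Each point is 1 library and the bar gives mean and SD; the 2 responder sides do not overlap in any of the 8 panels, and Pdcd1 runs from 30.4 to 37.9 CPM against 13.8 to 17.0.

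Of the T cell receptor complex and T cell identity list, 12 of 18 tested members rose (list median log2 fold change 0.76, beside -0.02 over all genes tested). All 18 had a fold change above 0. Cd3e, a signalling chain of the receptor, lay at 20.9 to 31.9 CPM on the high side and 11.3 to 19.9 CPM on the low side, with no overlap (log2 fold change 0.81, SE 0.13, edgeR adjusted p = 0.018). The chains Cd3d and Cd3g rose by 0.82 and 0.85, and Cd247 by 0.72, on the log2 scale. The receptor kinases Lck and Zap70 rose by 0.78 and 0.85, the costimulatory receptors Cd28 and Cd27 by 0.77 and 0.83, and the thymocyte selection gene Themis by 0.93. Cd4, the helper T cell co-receptor, had a log2 fold change of 0.46 that did not pass (edgeR adjusted p = 0.0618). Without responders 3 and 12, 11 of the 18 members passed, and without responder 6 only 1 did, Cd3g.

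Cytotoxic lymphocyte genes gave the highest list median of those in the plot of list members, 0.87, with 6 of 13 tested members passing. Ccl5, a chemokine made by cytotoxic T cells that attracts further leukocytes, lay at 227 to 486 CPM (median 365) on the high side and 90.0 to 206 CPM (median 133) on the low side. The sides did not overlap, and it rose by 1.35 on the log2 scale (SE 0.25, edgeR adjusted p = 0.0263), among the largest rises. Nkg7, a cytotoxic granule protein, lay at 87.5 to 109 CPM against 30.6 to 73.2 CPM, again without overlap (log2 fold change 0.90, edgeR adjusted p = 0.0287). Cst7, Crtam and the T-bet gene Tbx21 rose by 0.87, 1.07 and 0.95. Gzmk, Gzmm, Fasl and Eomes had values of 0.52 to 0.64 that did not pass. Ifng, Gzma, Gzmb and Prf1 are not analysed here. Without responder 6, 1 of the 13 cytotoxic genes passed, which was Cd8b1, the partner chain of Cd8a. Of 17 NK cell genes, Klrd1 (0.72) and Klrb1c (0.65) passed, and the list median was 0.63. Neither passed without responder 12 (0 of 17, median 0.44; 11 at an unadjusted p under 0.05) or without responder 6 (0 of 17, median 0.57), in edgeR, while 8 of 17 passed in DESeq2.

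Among checkpoint and exhaustion genes 6 of 16 passed, and 2 of 16 did without responder 6, namely Pdcd1 and Cxcr6. Besides Pdcd1, the receptors Cd160 and Cd96 rose by 1.16 and 1.09, Cd244 by 0.58, the exhaustion-linked transcription factor Tox by 0.66, and Cxcr6, a homing receptor of resident T cells, by 0.89. Cxcr6 lay at 41.2 to 62.7 CPM against 21.9 to 32.9 CPM, with no overlap. Havcr2 (TIM-3) at 0.31 and Lag3 at 0.66 did not pass. Lag3 missed narrowly (edgeR adjusted p = 0.0501). None of 12 naive and memory T cell genes passed (median 0.12; 5 at an unadjusted p under 0.05 in edgeR, 2 higher and 1 lower in DESeq2), and Tcf7, a factor of memory-like T cells, had 0.45. Of 18 homing and chemokine genes 5 passed. Without responder 6 Cxcr6 alone did, which is also in the checkpoint list, and Ccl5 is also in the cytotoxic list. Cxcr3 lay at 21.8 to 27.7 CPM against 11 to 17.6 CPM (log2 fold change 0.80), and Cxcl16, the Cxcr6 ligand, had 0.55.

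Of 13 regulatory T cell genes 1 passed between the sides, while 7 had a positive slope that passed when log2 Cd8a was fitted as a slope over the same responders. Foxp3 lay at 21.1 to 31.8 CPM (median 24.6) on the high side and 14.7 to 24.1 CPM (median 19.4) on the low side. The sides overlapped, and the log2 fold change of 0.40 did not pass (SE 0.14, 95% interval 0.08 to 0.72, edgeR adjusted p = 0.107). Its slope over the 12 responders, fitted only with all 12, passed (0.28, SE 0.08, edgeR adjusted p = 0.0326). Ctla4 passed with a rise of 0.38 (edgeR adjusted p = 0.0494) and was the member that did so (list median 0.36). Ctla4 passed in 2 of the 12 fits that left out 1 library, with a highest adjusted p of 0.123, without responder 6.

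**Figure D2:**
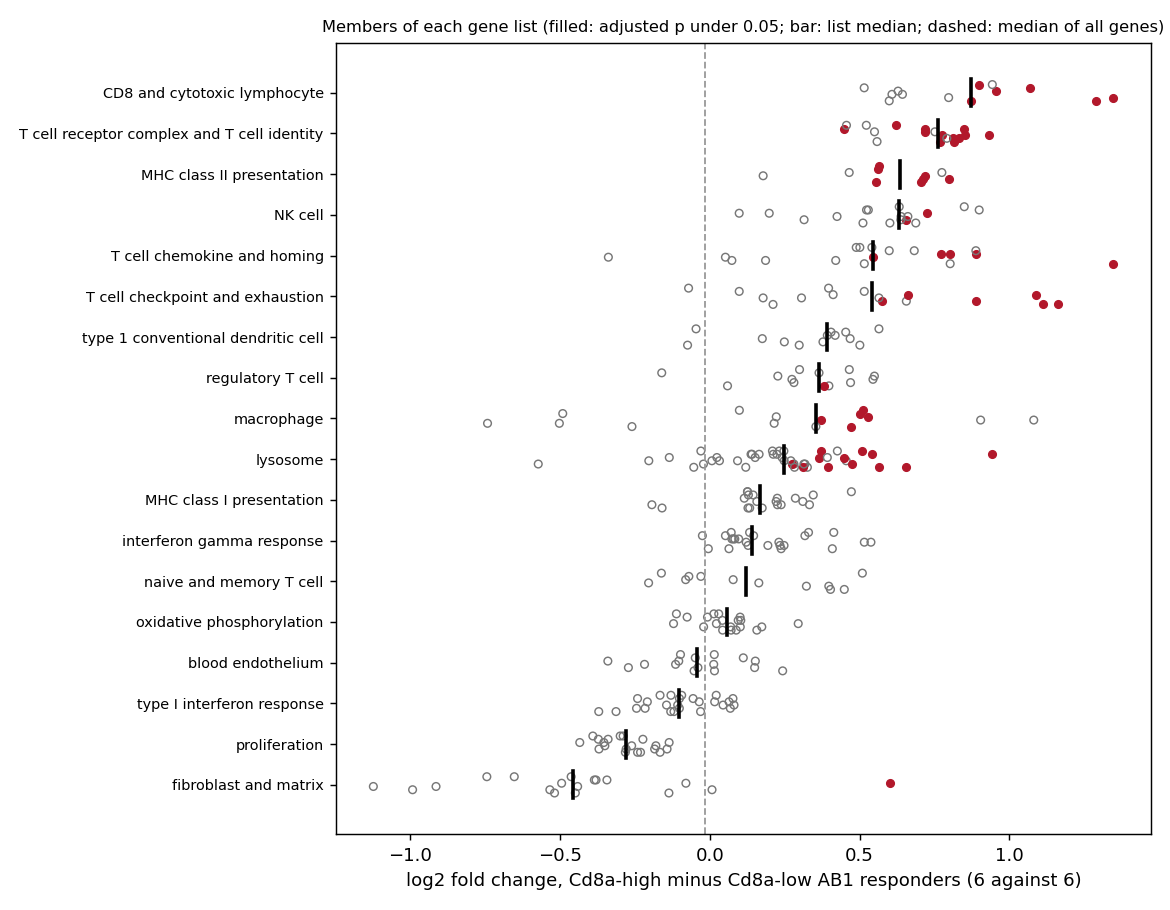
Log2 fold change between 6 high and 6 low responders for each tested member of 18 gene lists, on the horizontal axis; filled points passed, open points did not, the bar is the list median and the dashed line the median of all genes (-0.02). The lists run from cytotoxic genes (median 0.87) to fibroblast and matrix genes (-0.46), and the interferon gamma and proliferation lists have no filled point.

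Cd8b1 and Ccl5 were higher on the high side even relative to the CD3 chains. Counts were divided by the summed counts of Cd3d, Cd3e and Cd3g in each tumour, a scale on which 0.0583% of genes were higher and 90.5% lower on the high side, with a median of -0.86 over all genes, CD3 itself being higher there. A fall on this scale is therefore the common case. In either direction 13967 genes passed and 14037 were at an unadjusted p under 0.05 (edgeR). An adjusted p on this scale is therefore close to an unadjusted one. Cd8b1 lay at 23.04 to 37.0 counts per 100 CD3 counts on the high side (median 27.8) and at 16.9 to 23.4 on the low side (median 20.96). The sides overlapped only at their edges, and the log2 difference was 0.47 (SE 0.16, edgeR adjusted p = 0.0101). As Cd8b1 is the partner of the gene that chose the sides, this rise is no independent result. Ccl5 rose relative to CD3 by 0.54 (edgeR adjusted p = 0.0169). Pdcd1 had 0.28, which did not pass (edgeR adjusted p = 0.0982), though it did with more T cell genes in the divisor (0.35, adjusted p = 0.0308).

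Relative to CD3, Foxp3 fell by 0.43 on the log2 scale, from a median of 37.4 counts per 100 CD3 counts in low responders to 29.0 in high ones (ranges 30.1 to 48.2 and 25.1 to 32.8; edgeR adjusted p = 0.0099). The ranges overlapped. Ctla4 fell by 0.46, the GITR gene Tnfrsf18 by 0.47, the OX40 gene Tnfrsf4 by 0.52 and Ikzf2 (Helios) by 0.58. In all, 9 of 13 regulatory T cell genes were lower relative to CD3 and 0 higher (list median -0.47), beside the 90.5% and -0.86 of all genes. Of the T cell identity list, 3 of 18 were lower and 0 higher. Its members Cd3d, Cd3e and Cd3g form the divisor, and the scale held them near 0 (-0.0085, -0.025 and 0.021). Per CD3 count, a larger share of CD8 cells leaves a smaller share for other T cells. The rise of Cd8b1 and the falls of regulatory genes therefore need not be separate results. Cd4 had -0.37 (edgeR adjusted p = 0.0212), which did not pass with more T cell genes in the divisor (adjusted p = 0.0516) or without the flow cell term (adjusted p = 0.058). Ctla4 thus rose in CPM and fell per CD3 count, its direction depending on the scale.

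MHC class II genes were higher on the high side. Of 10 tested members 7 passed, 7 had no overlap between sides, and the median was 0.63. H2-Eb1, a beta chain of the class II molecule, lay at 1705 to 2296 CPM (median 1939) on the high side and at 1067 to 1418 CPM (median 1212) on the low side (log2 fold change 0.72, SE 0.10, edgeR adjusted p = 0.0137). H2-Ab1 and H2-Aa rose by 0.71 and 0.70. The peptide-loading genes H2-DMa, H2-DMb1 and H2-DMb2 rose by 0.55 to 0.56, and H2-Oa by 0.80. Cd74 and Ciita are not analysed here. Without responders 3 and 12, 5 of 10 passed, and without responder 6 none did, with a median of 0.62 (edgeR).

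Macrophage genes gave mixed values. The complement genes C1qa, C1qb and C1qc, which tissue macrophages make, rose by 0.53, 0.50 and 0.51. C1qb lay at 680 to 812 CPM in high responders and 514 to 631 CPM in low ones, with no overlap. Csf1r, the receptor for the macrophage growth factor, rose by 0.47 and Cd68 by 0.37. Other members lay on the other side of 0 without passing, namely Mrc1 at -0.50, Cd163 at -0.49 and Gpnmb at -0.74. In all 5 of 15 tested macrophage genes rose and none fell. Without responder 6, 0 of 15 passed in edgeR (7 at an unadjusted p under 0.05; with all libraries 6 passed in DESeq2). Sirpa, the myeloid receptor for CD47, lay at 632 to 944 CPM against 440 to 622 CPM, and rose by 0.72 without overlap (SE 0.11, edgeR adjusted p = 0.018). Of 13 genes of type 1 conventional dendritic cells, which present antigen to CD8 T cells, none passed (median 0.39; 6 at an unadjusted p under 0.05 in edgeR, 2 passing in DESeq2).

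Lysosomal genes, a list chosen after values were seen, had 12 of 43 members higher and none lower. Its median was 0.25, and 37 of 43 had a fold change above 0. Creg1, a lysosomal glycoprotein, lay at 88.4 to 117 CPM (median 110.8) on the high side and at 62.3 to 77.9 CPM (median 67.6) on the low side (log2 fold change 0.65, SE 0.09, edgeR adjusted p = 0.0119). Ctsd, the protease cathepsin D whose promoter with 2 E-boxes is printed above, lay at 478 to 647 CPM against 377 to 465 CPM (log2 fold change 0.45, edgeR adjusted p = 0.0287). Neither gene overlapped between the sides. The acid phosphatase Acp2 rose by 0.56, prosaposin (Psap) by 0.51, the acid nuclease Dnase2a by 0.39 and the membrane protein Scarb2 by 0.31. Without responders 3 and 12, 10 of 43 passed, without responder 6 only 1 did, and with the RNA purity ratios added none did in edgeR (27 at an unadjusted p under 0.05; 25 passed in DESeq2 without the ratios).

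Interferon gamma response genes did not pass. None of its 24 tested genes passed, with a median of 0.14 (2 at an unadjusted p under 0.05 in edgeR, 1 passing in DESeq2). Gbp2, a guanylate-binding protein whose promoter is shown above, lay at 1538 to 1850 CPM (median 1693) in high responders and 699 to 2104 CPM (median 1779) in low ones. The ranges overlapped, with a log2 fold change of 0.07 (SE 0.21, 95% interval -0.41 to 0.55). Irf1, an interferon-induced transcription factor, lay at 1038 to 1169 CPM against 461 to 1197 CPM, with the lowest value in responder 12. Cxcl9 lay at 1789 to 2195 CPM against 559 to 1769 CPM, which did not overlap, yet did not pass (log2 fold change 0.52, edgeR adjusted p = 0.174). Without responder 12 the list median was -0.05, with 9 of 24 genes above 0, and Cxcl9 had 0.31 (edgeR adjusted p = 0.0514). Cd274, the gene for PD-L1, had 0.41 (edgeR adjusted p = 0.354).

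None of 25 type I interferon genes passed in edgeR or DESeq2, and 0 were at an unadjusted p under 0.05 (median -0.10). Without responder 12 the median was -0.25, 1 of 25 estimates was above 0 and 20 were at an unadjusted p under 0.05, still with 0 passing in edgeR. Without responder 6 the median was 0.02. None of 20 MHC class I presentation genes passed in edgeR (median 0.17). At an unadjusted p under 0.05 there were 6, beside 4061 of all 15425 genes. In DESeq2 4 passed as higher, beside 1124 of 13823. B2m, the class I light chain, lay at 4559 to 4933 CPM on the high side and 2691 to 4998 CPM on the low side.

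**Figure D3:**
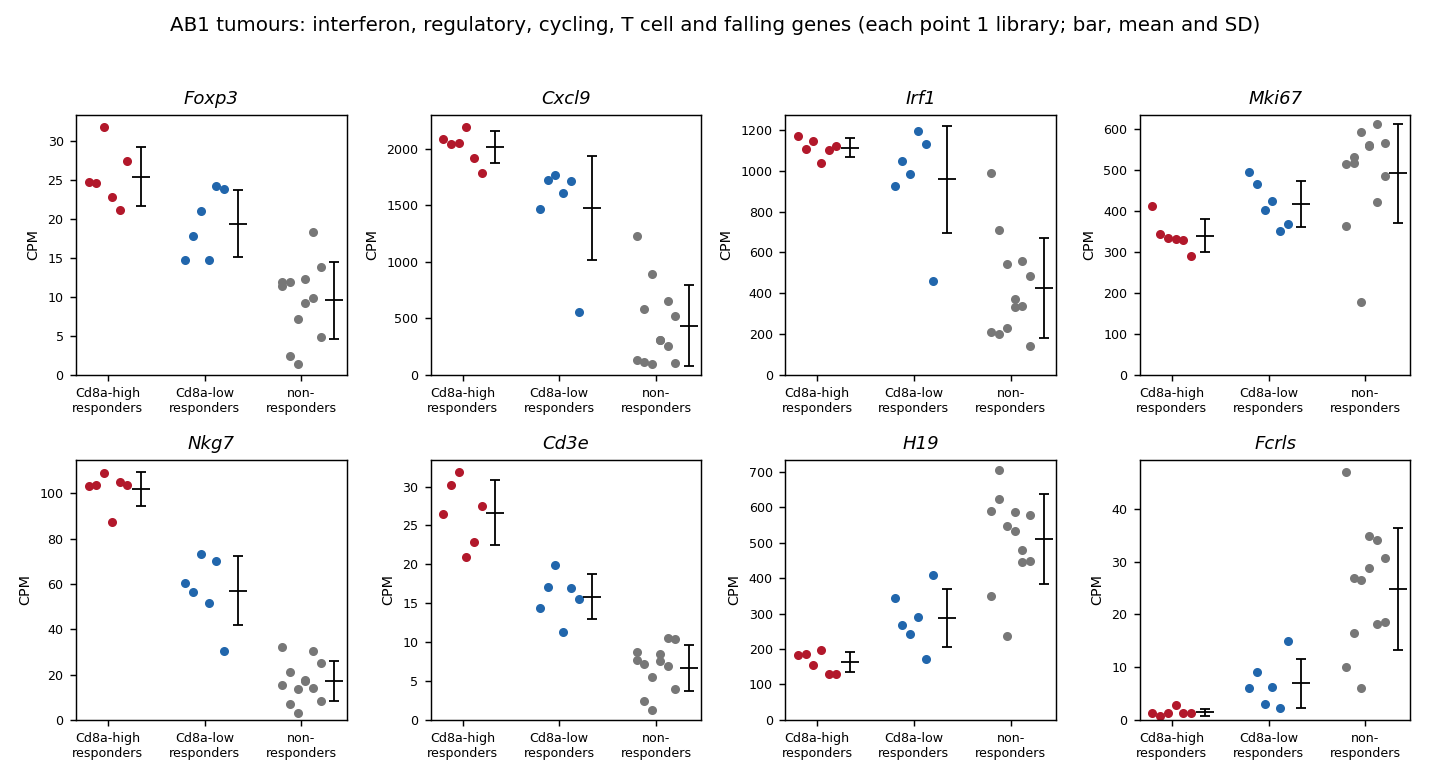
CPM on a linear axis from 0 in 6 high responders, 6 low responders and 12 non-responders, for genes of interferon, regulatory T cells, cycling, T cells and for 2 genes that fell. Each point is 1 library and the bar gives mean and SD; the low Irf1 and Cxcl9 points of the low side, 461 and 559 CPM, are responder 12.

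Proliferation genes had estimates below 0 that did not pass between the sides. All 20 had a lower estimate on the high side (median -0.28), 0 passed in edgeR, 16 were at an unadjusted p under 0.05 and 6 passed in DESeq2. With log2 Cd8a as a slope over the same 12 responders, all 20 passed as lower (median -0.22 per doubling of Cd8a). That slope was not fitted with single responders left out. Mki67, a marker of cycling cells, lay at 288 to 411 CPM against 350 to 494 CPM, overlapping (log2 fold change -0.23, edgeR adjusted p = 0.102). Of 18 fibroblast and matrix genes 0 fell in edgeR (median -0.46; 9 at an unadjusted p under 0.05), while 4 were lower in DESeq2 and 7 with log2 Cd8a as a slope. Postn, a matrix protein, lay at 177 to 284 CPM against 213 to 936 CPM, the highest being responder 12 (log2 fold change -1.12, edgeR adjusted p = 0.0557). The list median was -0.12 without that responder. Thy1, a surface protein of both T cells and fibroblasts, was the single member to rise (0.60). Markers of skin, muscle, fat and blood gave 0 of 35 tested genes passing (1 at an unadjusted p under 0.05 in edgeR, 0 passing in DESeq2). Only 4 of the 13 skin genes listed were tested, and Krt5 and Krt14 were below the count filter.

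Where the log2 of the average CPM was no lower than 1, the largest fall was Fcrls (chr3:87250758-87263738), an Fc receptor-like gene known as a marker of microglia. It lay at 0.687 to 2.75 CPM on the high side and 2.18 to 15 CPM on the low side (log2 fold change -2.36, SE 0.46, edgeR adjusted p = 0.0287). The ranges overlapped, and non-responders lay at 6 to 46.9 CPM. The protocadherin gene Pcdh10 fell by 0.99, to 1.10 to 2.40 CPM from 2.50 to 4.27 CPM. H19, an imprinted RNA of fetal and tumour tissue, lay at 129.5 to 196 CPM against 173 to 408 CPM and fell by 0.77 (edgeR adjusted p = 0.0439). Ephx1, a detoxifying epoxide hydrolase, fell by 0.64, and Cdh2, the N-cadherin gene of the mesothelial and AB1 line list, by 0.59. Fcrls, Pcdh10 and H19 passed in 5, 5 and 3 of the 12 fits that left out 1 library.

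Above the same average level, the largest rise was Kcnj10, a potassium channel gene, at 31.0 to 53.8 CPM against 6 to 22.4 CPM (log2 fold change 1.51, SE 0.32, edgeR adjusted p = 0.0339). Next came Pla2g2d, a secreted phospholipase, at 1.43. Dnase1l3, a nuclease secreted by dendritic cells and macrophages, lay at 169.6 to 218 CPM against 29.3 to 124 CPM and rose by 1.17. Fpr1, the formyl peptide receptor of phagocytes, rose by 1.22 and Nrgn by 1.17. These genes showed no overlap between the sides except Pla2g2d, at 5.89 to 17.9 CPM against 1.92 to 6.89 CPM. Of the 12 fits that left out 1 library, Kcnj10 passed in 4, Pla2g2d in 3, Dnase1l3 in 4, Fpr1 in 8 and Nrgn in 11. Over the 12 responders the genes ordered most like Cd8a were Emid1 (Spearman rho 0.993), then Cd52, Fam71b, Fis1 and Ikbke (0.979 each), and then Atp6v1f, Cybb, Gmfg, Lpcat2 and Parvg (0.972 each). Cd52 is a surface protein of lymphocytes and Cybb the phagocyte oxidase subunit. These are descriptions over 12 tumours, picked from all genes, with no test.

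Both sides were then set against the same 12 AB1 non-responders, so the values below share their controls. In low responders 3596 of 16187 genes were higher (22.2%) and 3013 lower (18.6%), 40.8% in all. In high responders 4649 were higher (28.7%) and 4883 lower (30.2%), 58.9% in all. With same-numbered libraries as a replicate block the totals were 5477 in low and 8978 in high responders. T cell identity genes had median log2 fold changes of 1.49 in low and 2.20 in high responders, all 18 passing in each. MHC class II medians were 1.198 and 1.835, all 10 passing in each.

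The interferon gamma list had medians of 1.43 in low and 1.49 in high responders, all 24 genes passing in each. The low responders include responder 12, whose summed level of this list, 8621 CPM, lay inside the non-responder range (2241 to 21460 CPM). The other responders had 21740 to 26060 CPM. The fits against non-responders were not run without responder 12. Gbp2 was 1.49 above non-responders in low and 1.497 in high responders. The type I list had 0.90 and 0.66, with 25 and 20 of 25 passing. Pdcd1 had 1.53 and 2.63, and Ccl5 1.96 and 3.29. Proliferation genes had -0.27 with 1 of 20 lower in low responders, and -0.53 with 19 lower in high responders. The lysosomal list had 0.23 and 0.44. Ctsd had 0.06 in low responders, which did not pass (edgeR adjusted p = 0.667), and 0.51 in high ones (adjusted p = 9.4e-05). Creg1 had 0.37 and 1.004. The difference between the sides is the 6 against 6 comparison above.

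**Figure D4:**
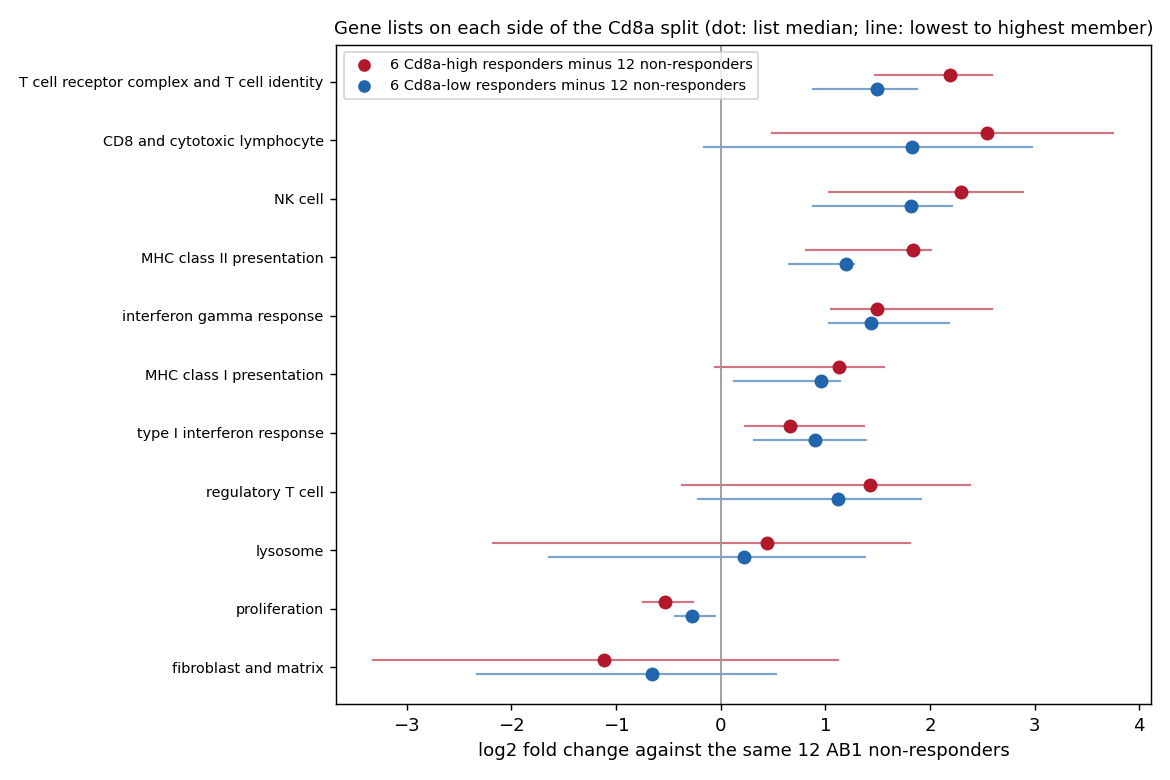
Log2 fold change against the same 12 AB1 non-responders, on the horizontal axis, for 6 high and 6 low responders and 11 gene lists; the dot is the list median and the line runs from the lowest to the highest member. The interferon gamma dots lie at 1.49 and 1.43, while those of T cell identity lie at 2.20 and 1.49.

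Tumours outside the split served as further data for the genes found. In each of the other groups of 12, genes were fitted as a slope on log2 Cd8a, the log2 change per doubling of Cd8a. In AB1 non-responders 499 genes passed with a positive slope (3.23%) and 35 with a negative one (0.227%), 3.46% in all. Of 386 testable genes that rose in the split, 120 passed with a positive slope there (31.1%), which is 24% of the 499, and 92.7% had the same sign, beside 51.7% of all genes. In Renca responders, with 50 positive slopes that passed (0.324%; 0.343% in either direction), 15 of 391 passed, which is 3.84% of the split genes and 30% of the 50. In Renca non-responders, with 681 that passed (4.41%; 6.04% in either direction), 145 of 388 passed, which is 37.4% of the split genes and 21.3% of the 681. The share of the same sign was 85.4% in Renca responders and 85.6% in the Renca non-responder group, beside 48.2% and 47.4% of all genes. Of the genes that fell, 0 of 131, 0 of 128 and 8 of 128 passed with a negative slope in these 3 groups, where 35, 3 and 252 genes did (0.227%, 0.0194% and 1.63%). Slopes below 0, passing or not, were found for 87%, 75% and 70.3% of them, beside 48.3%, 51.8% and 52.6% of all genes. The calls in AB1 non-responders rested on the 2 tumours of lowest Cd8a. Without non-responders 9 and 2, at 2.07 and 2.69 CPM, none passed (736 at an unadjusted p under 0.05, edgeR). The estimates of Ctla4 and Foxp3 changed little, from 1.717 to 1.865 and from 1.565 to 1.446. Their SE rose from 0.19 to 0.56 and from 0.17 to 0.49. That of Cd27 moved more, from 1.289 to 1.896. Without the tumour of highest Cd8a, 1 gene passed in Renca responders.

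Cd8b1, the partner chain of Cd8a, passed in all 3 groups. Its slopes were 1.03 (SE 0.12), 0.93 (SE 0.08) and 0.76 (SE 0.07) for AB1 non-responders, then Renca responders, then Renca non-responders. Pdcd1 had 0.78, 0.72 and 0.76, and the Renca responder value did not pass (edgeR adjusted p = 0.151). H2-Eb1 had 1.01, 0.47 and 0.46, all passing, and Cxcr6 had 0.43, 0.84 and 0.75, all passing. C1qb had 0.56, 0.24 and 0.18, of which the Renca responder value did not pass (edgeR adjusted p = 0.215). Sirpa had 0.12, 0.10 and 0.02, and none of these passed. H19 had -0.18, 0.41 and 0.42, and none passed. All 24 interferon gamma genes had slopes above 0 in each of the 3 groups. Of them 0 passed in AB1 non-responders, 1 among Renca responders and 23 among Renca non-responders, with medians of 0.97, 0.49 and 0.85, beside 0.14 in AB1 responders, where 1 passed. When the slopes of AB1 responders and AB1 non-responders were tested against each other, 0 of the 24 differed (median difference -0.85).

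The slopes of AB1 responders and non-responders differed for 89 of 16187 genes (0.55%), 36 with the higher slope in responders (0.222%) and 53 with the lower (0.327%). Ctla4 had a slope of 0.25 (SE 0.06) in responders and 1.72 (SE 0.19) in non-responders (difference -1.49, edgeR adjusted p = 7.63e-04). Foxp3 had 0.28 and 1.57, and Ccr8, a chemokine receptor of tumour regulatory T cells, 0.39 and 1.61. In all 7 of 13 regulatory T cell genes and 10 of 18 T cell identity genes had a lower slope in responders. In the other direction, Sirpa had 0.49 in responders and 0.12 in non-responders (difference 0.38, edgeR adjusted p = 0.0103), Creg1 0.43 and 0.02, and Ctsd 0.31 and -0.12. Cd8a spans a different range in each group, 14.1 to 64.4 CPM and 2.07 to 9.59 CPM, and range and response cannot be told apart. With the replicate block 2 genes passed, Il2ra and Atp13a2, and Ctla4 did not (-1.46, edgeR adjusted p = 0.331). Without non-responders 9 and 2, 3 other genes passed (Gm5879, Gm13136 and Gm6560) and Ctla4 had -1.74 (SE 0.46, edgeR adjusted p = 0.992).

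**Figure D5:**
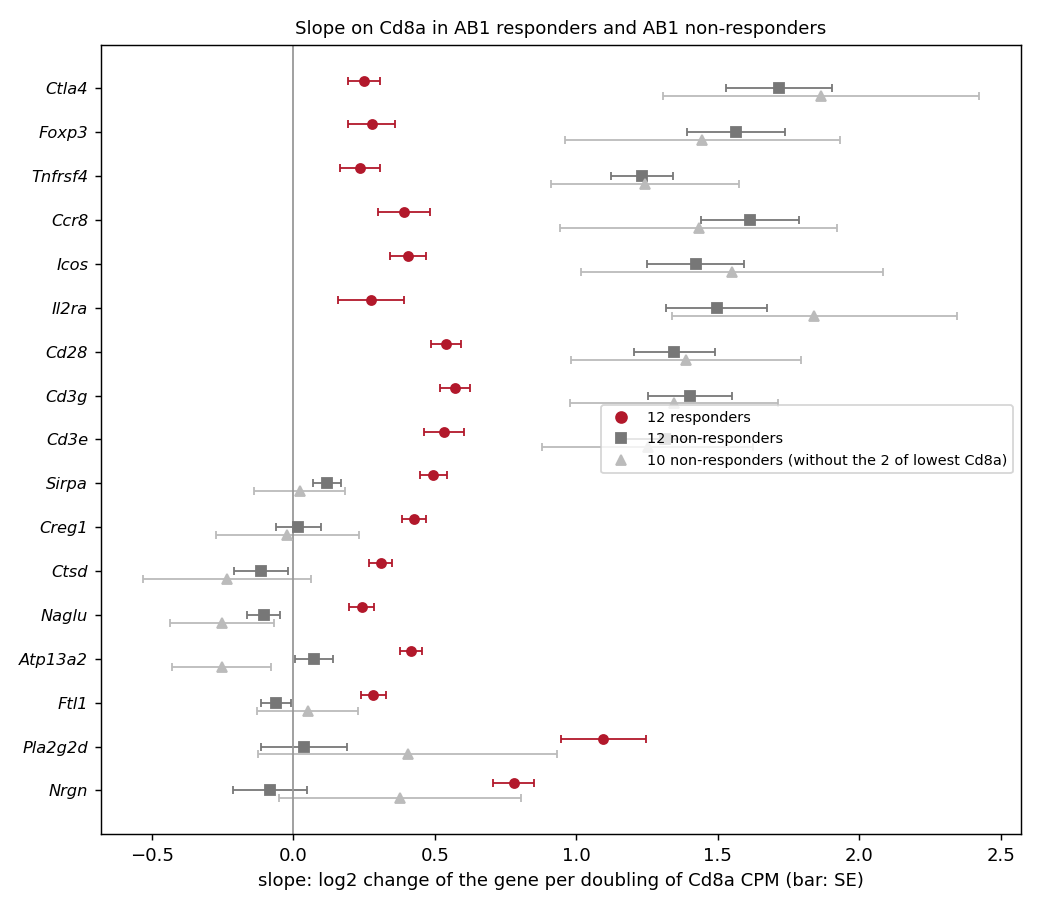
Slope of 17 genes on Cd8a, the log2 change per doubling of Cd8a CPM, in 12 AB1 responders, 12 AB1 non-responders and the 10 non-responders left without the 2 of lowest Cd8a; bars are standard errors. Ctla4 lies at 0.25 in responders and 1.72 in non-responders, and Creg1 at 0.43 and 0.02, and the bars widen when the 2 tumours are left out.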

How the data were processed

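Total RNA of 48 whole tumours was sequenced, 1 tumour per library. The deposited values are raw counts per gene that the authors did not normalise, per the values in the table: whole numbers for 39637 mouse Ensembl genes. StringTie 1.3.0, HISAT2 2.0.4 and bcl2fastq 2.18.0.12, with the human builds GRCh37 and hg19, are listed in the submitters' processing notes. For mouse build, annotation, counter and strandedness, nothing is given in the sources used here. Genes that overlap or have near-identical copies (the H2, Gbp and Klr families) are therefore uncertain. Coordinates come from GENCODE M21 (GRCm38), which matched 39461 identifiers.

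Library totals are sums over the genes analysed. Tests used edgeR 4.0.16 in R 4.3.3: TMM scaling, filterByExpr in at least 6 libraries, the quasi-likelihood F test with flow cell as a term, and Benjamini-Hochberg adjustment at 0.05. Cd8a stayed in the totals and out of every test. The SE is the fold change divided by the square root of F, and intervals use 9 residual degrees of freedom. The 6 against 6 fit used responders alone, fits against non-responders used 24 AB1 libraries, and the CD3 fit replaced the library scaling by summed CD3 counts. DESeq2 1.42.0 was an alternative. The lowest chi-square per gene between any 2 of the 12 responders was 13.2, so no 2 agree within sampling noise. Per the labels, a responder and the non-responder of its number ran in the same lane in 12 of 12 pairs. Numbers 9 to 12 all shared 1 lane, so the lane does not pair those libraries by number. A shared lane also does not show that mice were paired. The deviations of same-numbered libraries correlated from -0.0764 to 0.533, with 5 of 12 pairs over 0.1.

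On simulated counts for the 6 against 6 fit over 15425 genes, 89% of changes of 1 log2 unit and 44% of changes of 0.5 were called, with 9 false calls. The simulation changed 200 genes, all with a log2 of the average CPM no lower than 1, and drew each gene separately. Genes of real tumours may move together, so these shares need not hold for them. Members, lists and rules were chosen with earlier results of these data known. Named genes are the 12 largest rises and 12 largest falls that passed with a log2 of the average CPM no lower than 1. Predicted, pseudogene and receptor segment symbols were left out of these. Also named are the 3 members of smallest p in each of 35 lists, the 10 nearest Cd8a and a fixed panel of 31 genes. Some genes of the panel and lists are not reported here. Other list members are named as examples of a count, chosen after their values were seen.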

Additional observations from a re-analysis of the deposited data

Results flagged for a closer look

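Of 100 groups of 6 libraries checked, 8 had a library far from the other 5, where chance gives about 1 in 20. On the low side, responder 12 stood apart in Cxcl9 (559 CPM, others 1471 to 1769), Irf1 (461 CPM, others 926 to 1197), B2m (2691 CPM, others 4515 to 4998) and Dmp1 (3.21 CPM, others 0.545 to 1.12). On the high side, responder 8, the nearest to the threshold, stood apart in Nkg7 (87.5 CPM, others 103 to 109), Fcrls (2.75 CPM, others 0.687 to 1.305), Cth (4.87 CPM, others 3.39 to 3.91) and Dmp1 (1.52 CPM, others 0.481 to 0.747). In all 4 genes that value lay in the direction of the low responders. In Dmp1 it was above every low responder except responder 12.

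The slope on Cd8a differed between AB1 responders and non-responders for 89 genes by an interaction term. Among the named genes, the responder slope was lower for Ctla4 (difference -1.49), Foxp3 (-1.28), Ccr8 (-1.22), Izumo1r (-1.16), Cd3g (-0.84), Cd3e (-0.79), Cd27 (-0.76), Pacsin1 (-0.57) and Ephx1 (-0.50). It was higher for Pla2g2d (1.06), Nrgn (0.86), Sirpa (0.38), Sdhb (0.30) and Atp6v1f (0.22). None of these 14 passed with the replicate block or without the 2 non-responders of lowest Cd8a.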

How the results depend on the processing

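No named gene that passed changed direction under the alternatives run. The 397 higher and 131 lower genes became 774 and 407 without the flow cell term, 1118 and 783 without the 2 libraries nearest the threshold, 1698 and 1634 with log2 Cd8a as a slope, 1124 and 752 in DESeq2, and 1 and 0 with RNA purity ratios added. Within the first flow cell (2 against 3) and within the second (4 against 3) they were 0 and 0. Leaving out 1 responder at a time gave 10 to 967 higher and 0 to 570 lower. The lower genes were 201 with library totals alone (a split of 62.7% higher against 75.2%) and 70 with no filter on low counts. The cause of these changes was not tested, beyond the smaller number of libraries where some were left out.

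No paired analysis was possible for the 6 against 6 comparison because each replicate number occurs once in it. Against non-responders the replicate block kept the counts within 1.5 times, (5477 in low and 8978 in high responders), and with it 2 genes had slopes that differed, beside 89. Leaving out responders 3 and 12 together, or the 2 non-responders of lowest Cd8a, was chosen after seeing the data. Without the 2 non-responders of lowest Cd8a, 3 such genes passed, and 0 genes had a slope that passed in AB1 non-responders (285 without the tumour of highest Cd8a). Renca non-responders kept 279 slopes without their tumour of highest Cd8a. Renca responders had 1 without theirs and 179 without the flow cell term. With 6 tumours a side, changes of 0.5 log2 units were often missed in simulated counts.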

Other observations

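Of the gene groups not described above, respiratory chain genes had a median of 0.06 over 20 members and 0 passing in edgeR (3 at an unadjusted p under 0.05; 4 in DESeq2), and blood endothelium genes a median of -0.04 over 16 with 0 passing (1 at an unadjusted p under 0.05; 1 in DESeq2). Hypoxia and glycolysis genes had a median of 0.29 over 17, 16 of them above 0. In edgeR 0 passed and 6 were at an unadjusted p under 0.05, beside 4061 of all 15425 genes. In DESeq2 6 passed as higher, beside 1124 of 13823. The glycolytic regulators Pfkfb3 and Pfkfb4 had log2 fold changes of 0.49 and 0.35 (edgeR adjusted p = 0.0658 and 0.0564).

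Neutrophil genes had a median of 0.56 over 11 members, and Clec4d, a myeloid lectin receptor, was the one to pass (0.87, edgeR adjusted p = 0.0482), as it did in 3 of the 12 fits that left out 1 library. Lcn2, an iron-binding neutrophil protein, lay at 31.8 to 130 CPM on the high side and at 2.96 to 61.0 CPM on the low side, the lowest being responder 12, and did not pass (1.001, edgeR adjusted p = 0.303). Genes of IL-12, IL-15 and IL-27 signalling had a median of 0.47 over 12, with 0 passing in edgeR (7 at an unadjusted p under 0.05; 3 in DESeq2).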
